A study of Rattus norvegicus with 7 samples.

Results

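The step from postnatal day 7 (P7) to postnatal day 10 (P10) in the rat retina was described, a period before eye opening in which photoreceptors and synapses mature. The libraries of these ages are 2 of the 7 of the study, and their pair is 1 of the 21 pairs of ages in the deposited values. All features with a locus length of 50 or more were compared, which were 5006 of 5491 features and, among those annotated as miRNA, 493 of 571.

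The study sequenced small RNA of the retina of untreated Wistar WU rats on the Ion Torrent PGM. The RNA of 3 retinas was pooled at each age, and each pool, by the methods section, went through 2 sequencing runs. Each feature has 1 FPKM value per age, a level corrected for the length of the locus and for the size of the library. With 1 pooled library on each side there is no spread between animals, so none of the differences has a replicate check.

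Low FPKM values of a library came in steps, each the worth of 1 alignment at a given locus length, from which the number of alignments behind a value was estimated. The estimate was 585594 alignments at P7 and 458283 at P10 if the step sizes of a library carried equal signal. Without that assumption it could lie between 476540 and 703344 at P7 and between 199312 and 703978 at P10. The 10 most abundant features held 35.3% of the signal at P7 and 39.3% at P10, and 22 features were listed at 0 at P7 against 121 at P10. Intervals given with a difference are 95% counting intervals from these alignments. They cover counting error only, and PCR copies of a molecule count as separate alignments in them.

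A miRNA is cut from a hairpin precursor and guides a protein complex to messenger RNAs that match its seed, a short stretch near its 5′ end. Members of a family share the seed and can be transcribed from several loci, and neighbouring hairpins are often cut from the same transcript. In the retina the mir-183 cluster is known for its high level in photoreceptors, mir-124 for neurons, and mir-204 with its paralog mir-211 for pigment epithelium and glia.

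The sequences that carry the main differences are those of the loci with the largest rises, of their relatives with the same seed and of neighbouring hairpins that moved apart. Mature sequences came from RefSeq on the GRCr8 build, where 266 of the 486 miRNA symbols of the data had an entry. They are printed 5′ to 3′ in lower case with the seed, bases 2 to 8, in capitals, and lines with the same seed follow each other. A deposited feature is a whole hairpin locus, so its FPKM cannot be divided between the arms, and a single arm is shown for each. The mir-30 seed is shown because the 2 largest rises, Mir30c1 and Mir30c2, share 1 mature sequence and this seed.
rno-miR-30c-5p: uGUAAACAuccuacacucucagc
rno-miR-30a-5p: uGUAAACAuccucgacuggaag
rno-miR-30e-5p: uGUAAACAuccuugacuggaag
rno-miR-384-5p: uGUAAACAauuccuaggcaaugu

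The next seed is that of Mir32, whose relatives differed widely in this step. Mir92a1 and Mir363 also lie in clusters with the loci of the mir-17 and mir-19 seeds printed further on.
rno-miR-32-5p: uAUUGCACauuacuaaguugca
rno-miR-25-3p: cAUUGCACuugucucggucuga
rno-miR-92a-3p: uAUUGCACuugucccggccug
rno-miR-92b-3p: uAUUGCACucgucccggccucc
rno-miR-363-3p: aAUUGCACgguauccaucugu

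Other large rises are shown with a paralog where RefSeq holds 1. The seeds of Mir96 and Mir183 are not the same, those of Mir211 and Mir204 are, as are those of Mir190 and Mir190b and of Mir135a and Mir135b. Mir3565, which RefSeq also calls mir-218b, lies on the strand opposite Mir218-1.
rno-miR-96-5p: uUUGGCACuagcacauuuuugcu
rno-miR-183-5p: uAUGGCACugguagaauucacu
rno-miR-211-5p: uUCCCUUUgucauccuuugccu
rno-miR-204-5p: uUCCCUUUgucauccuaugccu
rno-miR-190a-5p: uGAUAUGUuugauauauuaggu
rno-miR-190b-5p: uGAUAUGUuugauauuagguu
rno-miR-135a-5p: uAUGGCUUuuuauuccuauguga
rno-miR-135b-5p: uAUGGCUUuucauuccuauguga
rno-miR-153-3p: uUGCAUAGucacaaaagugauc
rno-miR-218b: cAUGGUUAgaucaagcacaa

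Hairpins of the mir-17 and mir-106 clusters are shown because, within the mir-17 cluster, loci with the mir-17 or mir-18 seed and loci with the mir-19 seed differed in sign.
rno-miR-17-5p: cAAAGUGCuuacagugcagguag
rno-miR-20a-5p: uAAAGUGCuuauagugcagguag
rno-miR-106b-5p: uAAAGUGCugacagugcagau
rno-miR-93-5p: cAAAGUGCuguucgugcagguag
rno-miR-18a-5p: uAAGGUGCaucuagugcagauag
rno-miR-19a-3p: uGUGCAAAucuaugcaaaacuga
rno-miR-19b-3p: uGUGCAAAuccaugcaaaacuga

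Among the loci that were lower at P10, Mir212 is shown with Mir132, its neighbour of the same seed, Mir99b with its neighbour Mir125a, and Mir3584 as the largest fall of a locus with a miRNA name.
rno-miR-212-3p: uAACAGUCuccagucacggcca
rno-miR-132-3p: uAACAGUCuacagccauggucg
rno-miR-99b-5p: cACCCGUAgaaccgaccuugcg
rno-miR-125a-5p: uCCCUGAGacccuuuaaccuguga
rno-miR-3584-3p: gCCCGCAUcucuggauccc

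Differences are of log2(FPKM + 1), P10 minus P7, so a positive value is a higher level at P10. Counts and medians are over features whose estimated alignments averaged at least 20 over these ages, which 304 of the 493 miRNA features and 1977 of the 5006 features of all classes passed. A feature was called when its levels were at least 2-fold apart. Single features are said to have risen or fallen only where they were called and the counting interval also left out 0. A feature can pass the filter through 1 age alone, and the size of its difference is uncertain where the other age had fewer than 10 alignments. In RNA of a whole tissue, fewer cells of a type and less RNA per cell cannot be told apart.

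Of the 304 miRNA features, 85 (28%) were called higher at P10 and 33 (10.9%) lower. The median difference was 0.41, with quartiles of -0.41 and 1.10. Features of all classes leaned the other way, with 254 of 1977 (12.8%) called higher, 475 (24%) called lower and a median of -0.30. Each called miRNA feature also had a counting interval without 0, as had the 254 features of all classes called higher, while 459 (23.2%) of those called lower did.

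This balance depended on how the libraries are scaled to each other, which the study's methods do not state. Scaling each library to its miRNA total lowers every P10 value by 0.56 on the log2 scale, median-of-ratios scaling over the miRNAs by 0.25 and TMM scaling by 0.22. With the miRNA total, 34 miRNA features were called higher and 74 lower. With median-of-ratios scaling the counts were 63 and 50, and with TMM 65 and 44. For all classes they were 98 and 857, 171 and 628, and 178 and 611 in the same order. Relative to the shift of the miRNA total, a feature has to exceed 0.56 as deposited to lie above 0, and single features are read against that value below. Counts of calls below are as deposited unless a scaling is named, and each of the other scalings can only take away higher calls and add lower ones.

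**Figure D1:**
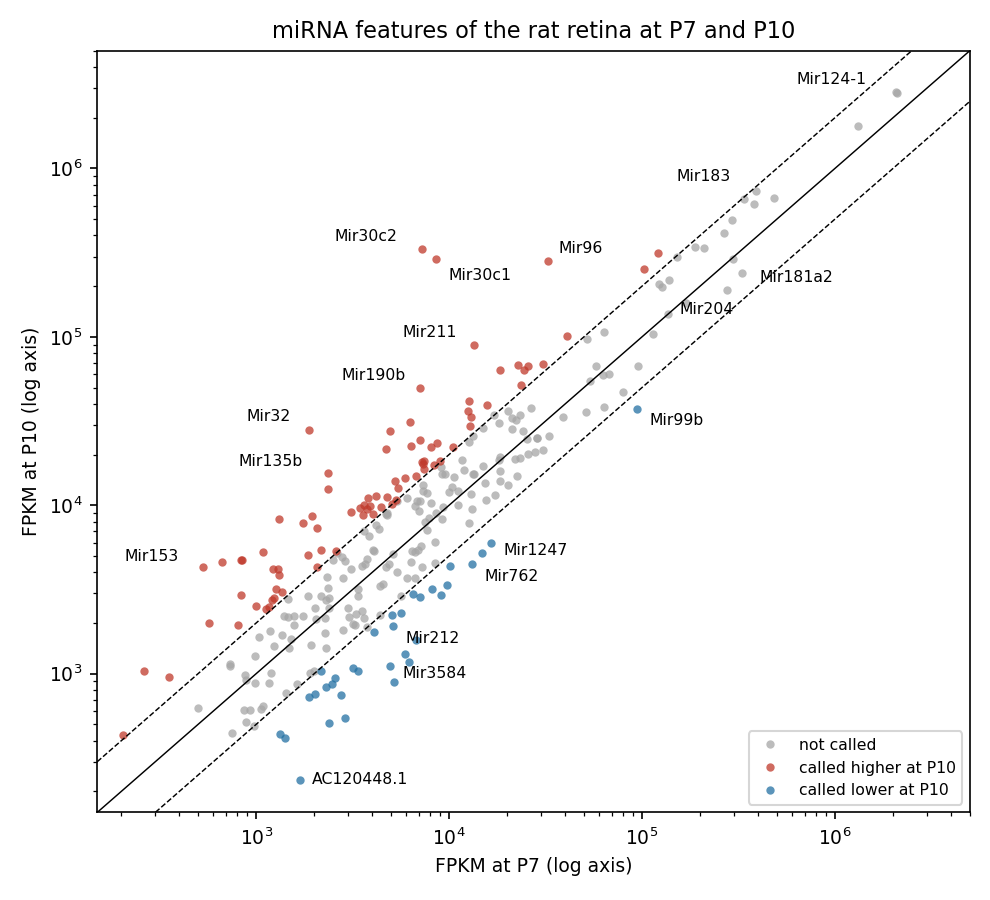
Level of each miRNA feature that passed the filter of 20 estimated alignments at P7 (horizontal, FPKM, log axis) and at P10 (vertical, FPKM, log axis), with values as deposited. The solid line marks equal levels and the dashed lines a 2-fold difference, red points are the features called higher and blue points those called lower, and Mir30c1 and Mir30c2 lie farthest above the lines.

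The plot of P7 against P10 levels shows calls over a wide range of levels. Of the 157 miRNA features with a mean of at least 100 alignments, 52 were called higher and 7 lower, with a median of 0.67. The 147 features below that mean gave 33 and 26, with a median of 0.04. Among miRNAs the calls were thus more even in direction at fewer alignments. Over all classes it was the other way, with 92 higher and 89 lower among the 500 features with a mean of at least 100 alignments (median -0.06) and 162 and 386 among the 1477 below it (median -0.38).

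Names also divided the calls. The 66 miRNA features that carry only the name of a genomic clone, which are predictions of the annotation, gave 11 higher and 23 lower, with a median of -0.75. The 238 other features gave 74 higher and 10 lower, with a median of 0.59. Thus 23 of the 33 miRNA features called lower were clone-named. Of the 304 features, 33 lie on the strand opposite a named miRNA gene. Of these, 13 (39.4%) were called higher and 0 lower, with a median of 0.77. Over all 304 miRNA features, 28% were called higher and 10.9% lower, with a median of 0.41.

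The plot of class medians shows how the classes of RNA differed. Small nucleolar RNAs (snoRNAs), which guide the modification of other RNAs, had a median of 0.32 over 223 features, with 48 (21.5%) called higher and 17 (7.62%) lower, beside 12.8% and 24% of the features of all classes. Long intergenic noncoding RNAs (lincRNAs) had a median of -0.46 over 945 features, with 87 (9.21%) higher and 270 (28.6%) lower. Processed transcripts, noncoding products that mostly carry the names of protein genes, had a median of -0.75 over 257 features, with 14 (5.45%) higher and 103 (40.1%) lower. Scaled to the miRNA total, the miRNA median was -0.14 and the snoRNA median -0.24, so the sign of both flipped. Higher and lower calls were then 13 and 52 for snoRNAs, 37 and 475 for lincRNAs and 7 and 169 for processed transcripts.

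**Figure D2:**
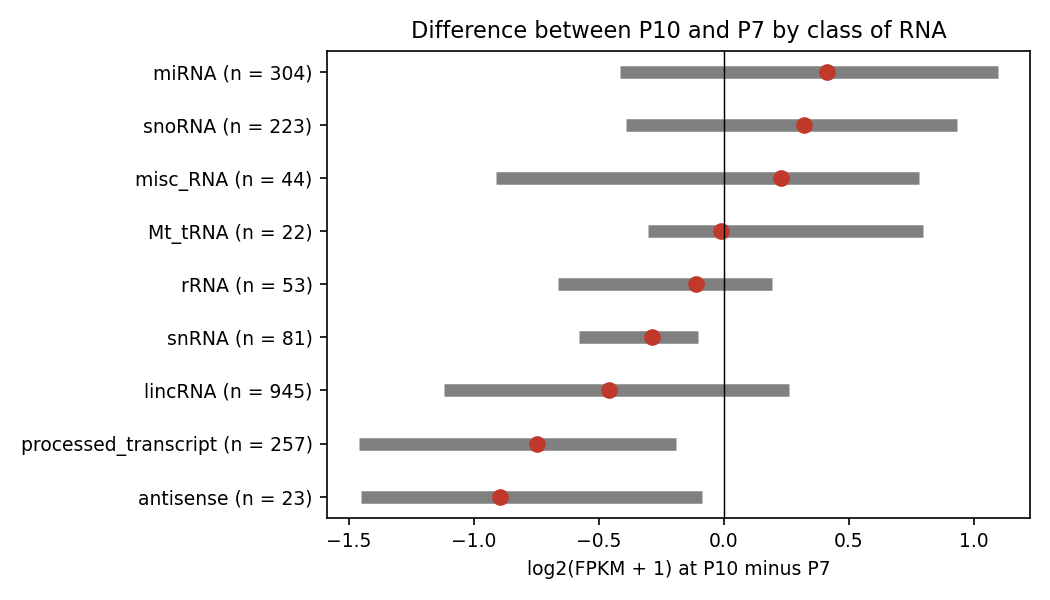
Median (points) and quartiles (bars) of the difference between P10 and P7 in log2(FPKM + 1) for each class with at least 20 features tested, as deposited, with n the number of features. The medians of miRNAs and snoRNAs lie at 0.41 and 0.32 and that of lincRNAs at -0.46, and scaled to the miRNA total the first 2 change sign, to -0.14 and -0.24.

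The composition of the libraries moved with this. As a share of the signal, which is the FPKM of a feature divided by what 1 alignment is worth at its length, miRNAs took 58.3% at P7 and 70.5% at P10. The share of lincRNAs went from 17.0% to 10.6% and that of processed transcripts from 5.29% to 2.54%. That of snoRNAs was 9.39% and 9.27%. Mitochondrial tRNAs took 2.97% and 2.10% and small nuclear RNAs (snRNAs) 2.88% and 1.77%. The larger share of miRNAs at P10 thus stood against smaller shares of lincRNAs and processed transcripts, and the part of library composition in the differences was not tested.

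The low FPKM values of each age were sums of 2 step sizes, so that many values could be split exactly into 2 component levels whose mean is the FPKM. They were not assigned to the sequencing runs and were not used as replicates. Of the 186 miRNA features that could be split at both ages, both components of P10 lay above both of P7 in 58 (31.2%) and below both in 36 (19.4%). Over all classes this held for 252 (15.9%) and 536 (33.8%) of 1584. Among the called miRNA features, 45 of the 85 higher and 29 of the 33 lower ones could be split. Components of the ages overlapped in 4 of these 45 and in 0 of these 29. The shares therefore do not stand for all miRNA features tested.

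Components of a single age also differed from each other. Their median absolute log2 difference over the miRNA features was 1.02 at P7 and 0.69 at P10. When the median offset between the components of an age was taken away, it was 0.28 at P7 and 0.59 at P10, and over all classes 0.54 and 0.76. The components of an age come from 1 pool, so these values hold no variation between animals and were not set against the difference between the ages.

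**Figure D3:**
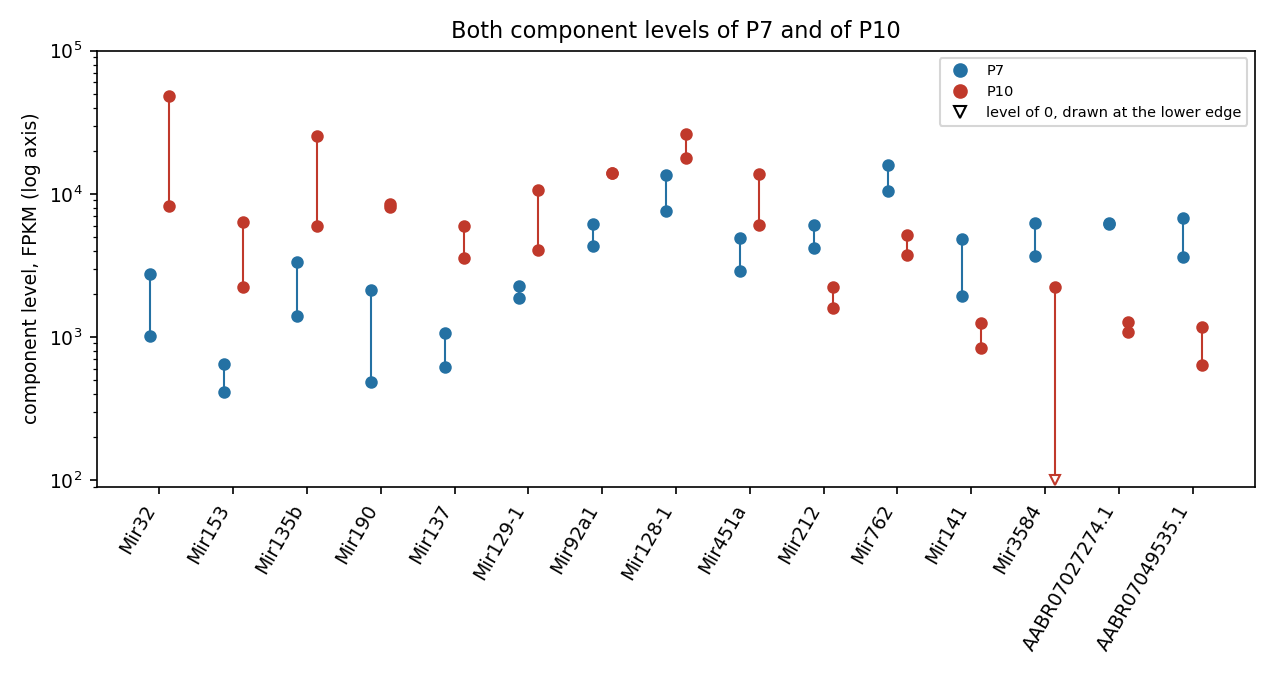
Both component levels (FPKM, log axis) of miRNA loci that could be split at P7 (blue) and at P10 (red), with a line joining the components of an age and a component of 0 drawn at the lower edge. The components of P10 lie above those of P7 for Mir32 to Mir451a and below them for Mir212 to AABR07049535.1.

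The largest rises were those of the 2 mir-30c loci. Mir30c2 (ENSRNOG00000035562.1, chromosome 9 from 29562376 to 29562459, forward strand of Rnor_6.0) rose from 7271 to 330539 FPKM, a difference of 5.51 (interval from 5.28 to 5.74) and a 45.5-fold rise. Mir30c1 (ENSRNOG00000035567.1, chromosome 5 from 139699877 to 139699965, reverse strand) rose from 8510 to 290932 FPKM, by 5.10 (from 4.90 to 5.29). The estimated alignments went from 163 to 4521 for Mir30c2 and from 240 to 4867 for Mir30c1. At P7 the components were 6090 and 8453 FPKM for Mir30c2 and 8358 and 8662 FPKM for Mir30c1, so the low level of that age was in both. These loci are on different chromosomes and share the mature sequence printed as rno-miR-30c-5p, and the division of its reads between them is not known.

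The rise of mir-30c restored an earlier level. Mir30c2 had 335884, 253627 and 197044 FPKM at P1, P3 and P5, and after its low P7 and high P10 levels it had 347172 and 18663 FPKM at P15 and P21. The P10 level was therefore near those of P1 and P15, and the P7 level was the lowest of the 7, with that of P21 next. Other loci of the mir-30 seed or name, taken for comparison after their values were seen, moved less. Mir30e, which lies beside Mir30c1 within Nfyc in RefSeq, rose by 1.39, from 25749 to 67377 FPKM. Mir30b rose by 1.38 and Mir384 by 1.59. Mir30a differed by 0.97 and Mir30d by 0.46, both below 2-fold. With the miRNA total, Mir30e (0.83) and Mir30b (0.82) were below 2-fold as well, and the difference of Mir30d flipped to -0.10. Mir30b and Mir30d have no mature entry in RefSeq and were grouped here by name. The 5 loci with this seed in RefSeq thus held differences from 0.97 to 5.51, and Mir30d lay below them with 0.46.

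**Figure D4:**
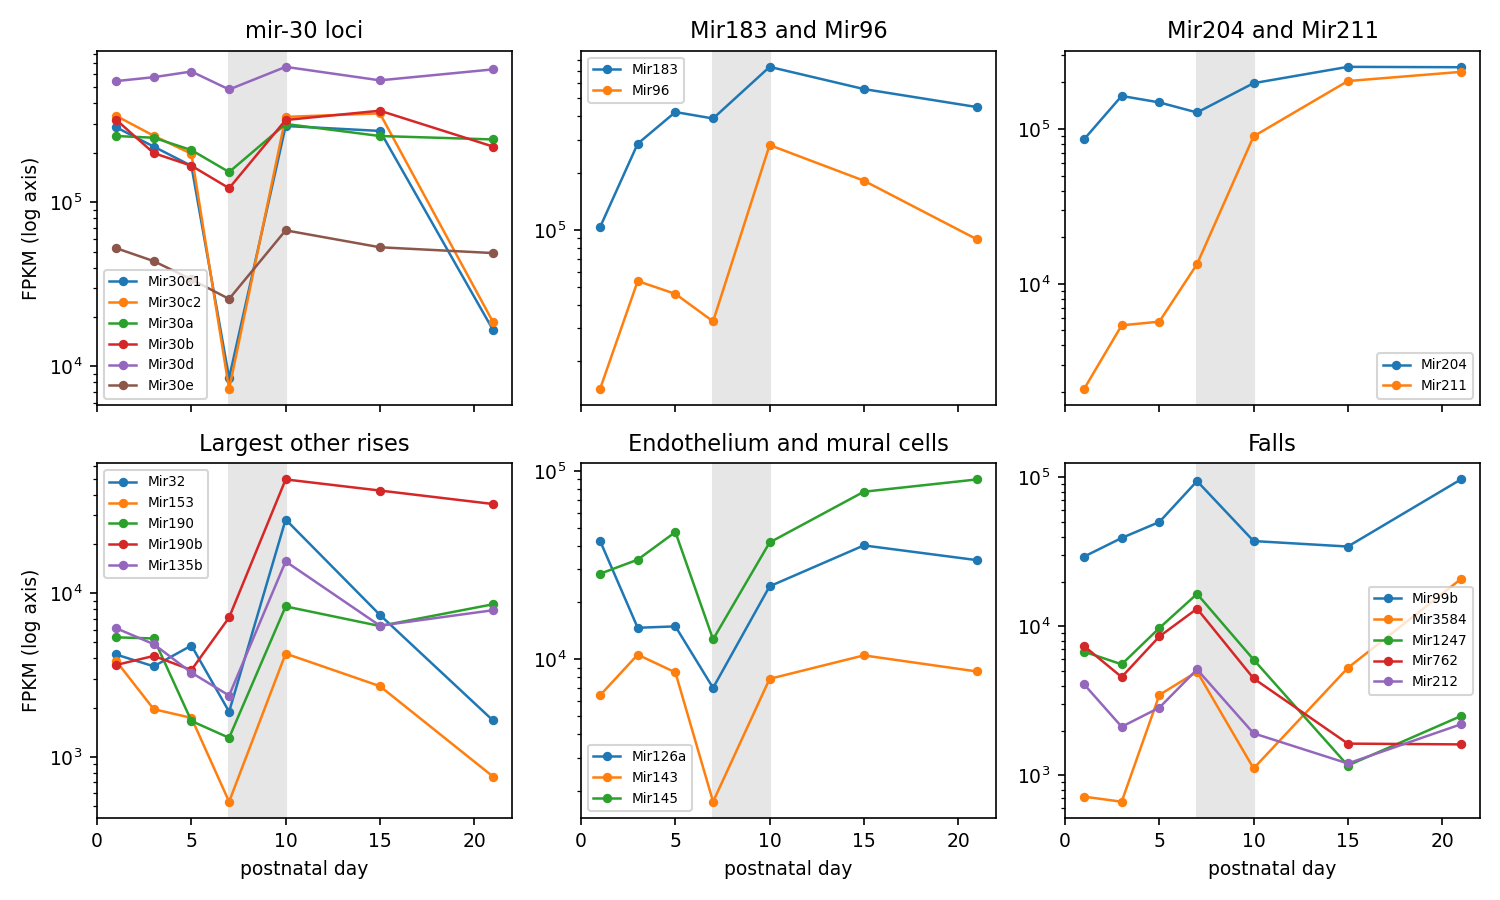
Levels (FPKM, log axis) of selected miRNA loci at the 7 ages against postnatal day, 1 pooled library per age, with the step from P7 to P10 shaded. Mir30c1 and Mir30c2 lie far below their relatives at P7 and not at P10, and Mir211 is higher at each later age, while scaled to the miRNA total Mir30d lies 0.10 lower on the log2 scale at P10 than at P7.

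Mir32 (ENSRNOG00000035512.1, chromosome 5 from 73934255 to 73934324, reverse strand), in Tmem245 by RefSeq, came next. Its level was 4224, 3575 and 4790 FPKM at P1, P3 and P5, 1889 FPKM at P7 and 28179 FPKM at P10, then 7373 and 1670 FPKM at P15 and P21, so P10 was its highest age by far. The difference between P7 and P10 was 3.90 (from 3.19 to 4.60), on 20 and 117 alignments. At P10 its components were 8216 and 48143 FPKM, and at P7 they were 1010 and 2769 FPKM, so they were apart but uneven. The other loci with this seed that passed the filter, chosen after their values were seen, were Mir92a1, which rose by 1.41, Mir25 with 0.87, Mir363 with -0.08 and Mir92b with -0.13. Mir92a2, which shares the mature sequence of Mir92a1, did not pass, and differed by -0.91 (from -2.27 to 0.44) on 19 and 8 alignments. Scaled to the miRNA total Mir32 still differed by 3.34, and Mir92a1 by 0.85.

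Mir96 and Mir183 are hairpins of 1 cluster on the reverse strand of chromosome 4, and the members of this cluster are known for photoreceptors. Mir96 (ENSRNOG00000035624.1, from 57463366 to 57463471) had 14260, 53459 and 45703 FPKM at P1, P3 and P5, 32655 FPKM at P7 and 281916 FPKM at P10, then 182431 and 89063 FPKM at P15 and P21. Its rise in this step was 3.11 (from 3.01 to 3.21), or 8.63-fold, on 1064 and 5431 alignments. Mir183 (ENSRNOG00000035451.1, from 57463569 to 57463678) went from 390263 to 733716 FPKM, a difference of 0.91 (from 0.87 to 0.95) that did not reach 2-fold. Both were highest at P10 among the 7 ages. Mir182, a further member of the cluster, was not analysed here. The cluster's loci summed to 422918 FPKM at P7 and 1015630 FPKM at P10, and the more abundant locus was Mir183.

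The paralogs Mir211 and Mir204 share a seed and lie within the genes Trpm1 and Trpm3 in RefSeq, which encode related cation channels. Mir211 (ENSRNOG00000035648.1, chromosome 1 from 125042119 to 125042224, forward strand) rose from 13414 to 89610 FPKM, by 2.74 (from 2.60 to 2.88). Its levels were 2090, 5397 and 5703 FPKM at P1, P3 and P5, and 203804 and 233594 FPKM at P15 and P21. Mir211 was thus on a rise that began before this step and went on after it. Mir204 (ENSRNOG00000035472.1, chromosome 1 from 240403000 to 240403109, forward strand), with 127711 and 197501 FPKM, differed by 0.63 (from 0.58 to 0.67), and by 0.07 when scaled to the miRNA total. Together they summed to 141125 FPKM at P7 and 287111 FPKM at P10. Both are on the list for Muller glia and pigment epithelium, whose part in the result was not tested. The feature of Dct, a gene of pigment cells, went the other way, from 2594 to 162 FPKM on 90 and 3 alignments.

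Loci of the mir-190 seed rose together. Mir190b (ENSRNOG00000041245.1, chromosome 2 from 189421137 to 189421214, forward strand) went from 7105 to 49524 FPKM, by 2.80 (from 2.43 to 3.17). Before P7 its level had been between 3395 and 4139 FPKM, and after P10 it was 42359 FPKM at P15 and 35046 FPKM at P21. Mir190 (ENSRNOG00000047497.1, chromosome 8 from 73030047 to 73030131, reverse strand), in the talin gene Tln2, went from 1308 to 8302 FPKM, by 2.66 (from 1.71 to 3.62). Its estimate rests on 12 and 52 alignments, and its interval is accordingly wide. Their paths before P7 differed, since Mir190b was higher at P7 than at P5 and Mir190 was lower.

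Mir153 (ENSRNOG00000035515.1, chromosome 6 from 145105064 to 145105150, forward strand), a neuronal miRNA in the vesicle gene Ptprn2, rose from 533 to 4277 FPKM. The difference was 3.00 (from 2.40 to 3.61) on 31 and 113 alignments. Its level was 3865, 1956 and 1732 FPKM at P1, P3 and P5, and 2706 and 759 FPKM at P15 and P21, so that P7 was its lowest age and P10 its highest. The remaining loci among the 10 largest rises carry names of the families the study follows, mir-135 and mir-218. Mir135b rose by 2.72 (from 2.22 to 3.22) and Mir3565 by 2.79 (from 2.36 to 3.22). Mir3565 is grouped here by the name of its mature sequence, miR-218b, whose seed is not that of either arm of Mir218-2. With Mir135a and Mir218-2, all 4 loci listed for these families rose, by 2.18 to 2.79 with a median of 2.56, compared with 28% called higher and a median of 0.41 over the 304 miRNA features. They were taken because the study follows them, with earlier results known, so nothing is read from this count. Their summed level was 10126 FPKM at P7 and 54211 FPKM at P10.

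The largest fall of a miRNA was smaller than the largest rise, and the 10 largest falls started from at most 6742 FPKM at P7. By the largest difference the list was led by AC120448.1 (ENSRNOG00000057074.1, chromosome 4 from 99133773 to 99133900, forward strand), a clone-named prediction that fell by 2.84 on the log2 scale, from 1682 to 234 FPKM. Its interval ran from -4.07 to -1.61, on 78 and 8 alignments. Of the 10 largest falls, 9 were clone-named. The others were AABR07049535.1 (-2.52), AABR07027274.1 (-2.41), AABR07016633.1 (-2.40), AABR07002262.1 (-2.22), AABR07057353.2 (-2.17), AABR07022653.1 (-2.08), AC142126.1 (-1.88) and AABR07050212.1 (-1.76), and the P10 levels of these 8 lay between 413 and 1594 FPKM, on 5 to 18 alignments.

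Mir3584 (ENSRNOG00000048300.1, chromosome 1 from 271275895 to 271275975, reverse strand) was the only locus of these 10 that is not clone-named. It had 720, 665 and 3466 FPKM at P1, P3 and P5, 4969 FPKM at P7 and 1114 FPKM at P10, then 5263 and 20779 FPKM at P15 and P21. The fall in this step was -2.16 (from -2.96 to -1.35), on 69 and 15 alignments, and 1 of its P10 components was 0. P10 was thus a dip between higher levels at P7 and P15.

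Of the other named loci called lower, chosen here after their values were seen, Mir99b was the most abundant. Mir99b (ENSRNOG00000035654.1) fell by 1.34 on the log2 scale (interval from -1.54 to -1.13), from 94470 to 37393 FPKM, on 1381 and 323 alignments. Mir141, a member of the epithelial mir-200 family, fell by 1.70 and Mir762 by 1.56. Mir1247 fell by 1.47 and Mir212 by 1.42, the latter on 168 and 42 alignments. The remaining loci were Mir6318 (-1.60), Mir615 (-1.47), Mir1199 (-1.38) and Mir665 (-1.21). These falls are larger under each of the other scalings, since all of them lower the P10 values.

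In most runs of neighbouring loci the lowest and the highest difference had the same sign, and those described first are chosen, with their values seen, from the runs where they did not. In the mir-17 cluster on the forward strand of chromosome 15, known for its activity in dividing cells, Mir17 differed by -0.53, Mir18a by -0.60 and Mir20a by -0.54. In the same cluster Mir19a differed by 0.65 and Mir19b1 by 0.75, and Mir92a1 rose by 1.41. The intervals of Mir17, Mir18a and Mir20a, of which the highest bound was -0.29, did not meet those of Mir19a, Mir19b1 and Mir92a1, of which the lowest was 0.56. These signs were kept under each scaling, where Mir19a was closest to 0 with 0.09 at the miRNA total. The levels of Mir20a were 276150 and 190173 FPKM and those of Mir19a 265861 and 416454 FPKM, so their order was reversed between the ages.

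Related clusters hold loci of the same seeds. In the mir-106a cluster on chromosome X, Mir106a, with the mir-17 seed, differed by -0.61 (from -0.91 to -0.31) and Mir19b2 by 0.69 (from 0.63 to 0.74). Mir106b, Mir93 and Mir25 lie within Mcm7, a gene of DNA replication, and differed by -0.03, -0.34 and 0.87. Scaled to the miRNA total, Mir106b was -0.59, while Mir25 kept its sign with 0.31. Over the 5 loci of the mir-17 seed that passed the filter the median was -0.53 and 0 were called, beside 28% higher and 10.9% lower of all miRNA features. Under the miRNA total Mir106a, Mir20a and Mir17 were called lower. Mir106b was not among these, and as deposited its interval ran from -0.11 to 0.04, which holds 0. Mir20b, of the same seed but below the filter, differed by 0.22 (from -0.93 to 1.38) on 19 and 13 alignments. For the 3 loci of the mir-19 seed the median was 0.69, also with 0 called.

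The plot of neighbouring loci also holds pairs that differed in sign or in size. Mir99a, on chromosome 11, differed by -0.76 and its neighbour Mirlet7c-1 by 0.99. Mir99b, on chromosome 1, fell by 1.34, while Mir125a beside it differed by -0.51. Mir212 and Mir132, which share a seed and a transcript induced by neuronal activity, differed by -1.42 (from -1.99 to -0.86) and -0.06 (from -0.80 to 0.69). Scaled to the miRNA total these values were lower for each of the 6 loci, with Mir99a (-1.32) and Mir125a (-1.07) then called lower and only Mirlet7c-1 above 0, with 0.44. By contrast, Mir143 and Mir145, within Carmn on chromosome 18, rose together by 2.17 and 1.71. A run of 23 loci on the forward strand of chromosome 6 had a median of 0.43, near the 0.41 of all miRNA features. Of these 23 loci, 4 were called higher and 0 lower, beside 28% and 10.9% of all miRNA features. Their median changes sign when scaled to the miRNA total.

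Members of some families had the same sign as deposited. The 6 loci with the let-7 seed in RefSeq lay between 0.52 for Mirlet7d and 1.77 for Mir98, with 2 called higher, beside 28% of all miRNA features, and 0 lower. Under the miRNA total Mirlet7d changed sign, to -0.04, and Mirlet7a1 (0.61) was below 2-fold, so that only Mir98 was called. Mir148a and Mir148b rose by 1.45 and 1.55, while Mir152 of the same seed differed by 0.32, and scaled to the miRNA total the first 2 were below 2-fold and Mir152 changed sign. The 4 loci with the mir-181 seed in RefSeq lay between -0.74 for Mir181c and -0.04 for Mir181b1. Of these, 0 were called, beside 28% higher and 10.9% lower of all miRNA features. Under the miRNA total Mir181c (-1.30) and Mir181a2 (-1.04) were called lower. Mir181b2, which has no mature entry in RefSeq, differed by -0.15 as deposited.

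The 6 named miRNA features with the most estimated alignments all differed by less than 2-fold. Mir124-1, Mir124-2 and Mir124-3, the loci of the neuronal mir-124, had 2090000, 1310000 and 2070000 FPKM at P7 and 2820000, 1780000 and 2830000 FPKM at P10. Their differences were 0.43, 0.44 and 0.45 as deposited and -0.13, -0.12 and -0.11 when scaled to the miRNA total, so their direction depended on the scaling. Mir30d, Mir183 and Mir204, described above, were the other 3 of the 6, and Mir183 (0.91) and Mir204 (0.63) lay above the median of 0.41 over the miRNA features. Markers of neurons, photoreceptors and pigment epithelium or glia thus had high levels at both ages of tissue labelled retina.

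Lists of miRNAs that mark cell types or processes were read beside the 304 miRNA features, of which 28% were called higher and 10.9% lower, with a median of 0.41. The neuron list (15 loci tested) gave 6 higher and 1 lower, with a median of 0.50 that became -0.06 when scaled to the miRNA total. Under that scaling Mir129-2 (0.76), Mir7a-2 (0.59) and Mir128-1 (0.51) were below 2-fold. Its highest locus was Mir153 and its lowest Mir212, and Mir137 rose by 2.49 and Mir129-1 by 1.82. The list for progenitor timing (11 loci of let-7 and mir-125) gave 4 higher and 0 lower, with a median of 0.94. Scaled to the miRNA total the median was 0.38 and all 4, between 0.57 and 0.80, were below 2-fold, while Mir125a (-1.07) was called lower. As deposited Mir125a differed by -0.51 and Mir125b1 by -0.07, below the let-7 loci. The proliferation list (12 loci) gave 1 higher and 0 lower, with a median of -0.08. Under the miRNA total the median was -0.64 and the counts were 0 and 4, since Mir92a1 (0.85) was no longer called and Mir106a (-1.17), Mir18a (-1.16), Mir20a (-1.10) and Mir17 (-1.09) were called lower. Mir29, known to increase as tissues mature, had 3 loci tested with 2 higher and a median of 1.00, and both were below 2-fold under each of the other scalings, where the median lay between 0.44 and 0.78.

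Lists for endothelium and mural cells, blood, muscle, surface epithelium and oligodendrocytes were read in the same way. The list for endothelium and mural cells had 3 of 3 loci called higher, beside 28% of all miRNA features, with a median of 1.79. Its summed level was 77356, 58959 and 70734 FPKM at P1, P3 and P5, 21511 FPKM at P7 and 73858 FPKM at P10, then 128087 and 132175 FPKM at P15 and P21, so that P7 was lowest and P10 was near P5. The most abundant locus by alignments was Mir126a, in the endothelial gene Egfl7, with 7031 FPKM at P7 and 24362 FPKM at P10. It is on the list by its name, while RefSeq gives it the mature sequence rno-miR-126b and it lies on the strand opposite Mir126b. Their part in the result was not tested.

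For blood, 2 of 4 loci passed the filter and both were called higher, with a median of 1.58, though Mir451a was below 2-fold (0.78) when scaled to the miRNA total. The summed level was 5820 FPKM at P7 and 17380 FPKM at P10, and the most abundant locus was Mir451a, a miRNA of red cells, with 3910 and 9890 FPKM. Mir486, which is also on this list, was not analysed here. For the muscle list, 0 loci passed the filter, and the summed level was 1327 FPKM at P7 and 3132 FPKM at P10, with Mir1b the most abundant. The list for lens, cornea and surface epithelium also had 0 loci tested, with sums of 882 and 5910 FPKM. There Mir184 went from 456 to 4972 FPKM on 7 and 29 alignments, below the filter, and Mir203 and Mir31 were not analysed here. The oligodendrocyte list had 1 locus, Mir219-1, with 7654 and 11758 FPKM and a difference of 0.62 (0.06 when scaled to the miRNA total), and Mir338 was not analysed here. No list of another cell type was at 0 at either age, and their part in the result was not tested.

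Among snoRNAs, a single locus of SNORD18 (ENSRNOG00000059435.1, chromosome 8 from 69125343 to 69125413, forward strand) rose from 662 to 21319 FPKM, by 5.01 (from 4.05 to 5.97). It had 116, 9932 and 1718 FPKM at P1, P3 and P5 and 659 and 240 FPKM at P15 and P21, so P10 was its highest age and P3 came next. Its P10 components were 1440 and 41198 FPKM, so nearly all of the rise was in 1 of them. The rises of 2 loci named SNORD115, a family of brain snoRNAs known from an imprinted region, were 2.39 and 2.22. Their levels went from 1464 to 7656 FPKM and from 1181 to 5490 FPKM. On chromosome 1 the first starts at 116740855 and the other at 56872995, so they are not neighbours. SNORA62 (ENSRNOG00000058283.1) fell by 2.42 on the log2 scale, from 6697 to 1248 FPKM, and SNORA50 (-2.40, with 5 alignments at P10) and SNORA57 (-2.36) followed.

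Among lincRNAs, AABR07053435.1 (ENSRNOG00000056640.1) rose from 10.2 to 2733 FPKM, on 1 and 73 alignments. It passed the filter through its P10 level alone, and its P7 level is below the floor of 3 alignments. The size of its difference is therefore uncertain, at 7.93 (from 5.08 to 10.78) with a pseudocount of 1 and 7.09 with 10. It had 63.9, 2089 and 823 FPKM at P1, P3 and P5 and 1014 and 500 FPKM at P15 and P21, so P7 was its lowest age. LOC100910750 rose by 4.55 (from 2.82 to 6.28), with levels of 115 and 2716 FPKM on 3 and 47 alignments, and LOC102555534 by 3.59 (from 2.30 to 4.89), with levels of 57.6 and 706 FPKM on 6 and 40 alignments. Both also passed the filter through P10, so their sizes are uncertain in the same way. The largest falls of lincRNAs were those of Rn60_14_0089.1 (-3.51, on 38 and 3 alignments with an interval from -5.21 to -1.81), AABR07051308.1 (-3.24, on 80 and 8 alignments) and AC115255.1 (-2.99, on 47 and 5 alignments). These passed the filter through P7, so their sizes are uncertain too, and with a pseudocount of 10 that of Rn60_14_0089.1 was -3.07. AABR07051308.1 was the most abundant of these, with 5776 FPKM at P7 and 613 FPKM at P10.

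Processed transcripts included pieces of protein genes. The feature of Dct (ENSRNOG00000008671.8), whose protein makes melanin in pigment cells, fell by 3.99 on the log2 scale, with an interval from -5.96 to -2.03, from 2594 to 162 FPKM on 90 and 3 alignments, a size that is uncertain since it passed the filter through P7. It had 1229, 784 and 2369 FPKM at P1, P3 and P5 and 243 and 309 FPKM at P15 and P21, so the later levels were low as well. The features of Tnxb, an extracellular matrix gene, and of Cacna1i, a calcium channel gene, fell by 3.23 (interval from -5.56 to -0.90) and 3.08. They had 2 and 5 alignments at P10, the first below the floor, so the sizes of these falls are uncertain. Rises included those of the features of Plekha6 (2.17), from 252 to 1137 FPKM, and Ccdc171 (2.16), from 156 to 699 FPKM.

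Other classes were read beside all features tested, of which 12.8% were called higher and 24% lower. Of 81 snRNAs, 3 (3.70%) were called higher and 14 (17.3%) lower, and a U6 locus on chromosome X fell by 5.41 on the log2 scale, from 1635 to 37.6 FPKM on 43 and 1 alignments, with an interval from -8.27 to -2.55. It passed the filter through P7 alone and its P10 level is below the floor, so its size is uncertain, with -5.11 at a pseudocount of 10. Another U6 locus, on chromosome 11, rose by 2.14, so copies of a single snRNA went both ways. Of 53 rRNAs, 2 (3.77%) were higher and 8 (15.1%) lower, with a 5S_rRNA locus on chromosome 14 that rose by 2.37 and an Rn5s locus that fell by 1.42. Under the miRNA total 1 snRNA was higher and 29 lower, with a U1 locus (0.79) and a U4 locus (0.63) no longer called, and 1 rRNA was higher and 18 lower.

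Of 22 mitochondrial tRNAs, 4 (18.2%) were called higher and 1 (4.55%) lower, and scaled to the miRNA total the 4 lay between 0.56 and 0.87, all below 2-fold, and 3 were called lower, with AY172581.2 (-1.46) and AY172581.10 (-1.26) added. The lower one, AY172581.3 (ENSRNOG00000029171.3, positions 1026 to 1093 of the mitochondrial genome, forward strand), fell by 2.09 on the log2 scale, from 167888 to 39357 FPKM, on 4953 and 686 alignments. AY172581.12 rose by 1.43, from 11259 to 30356 FPKM, the largest of the 4 rises. Of 44 miscellaneous RNAs, 7 (15.9%) were higher and 11 (25%) lower, near the shares over all features. They were led by a Y_RNA locus with 2.64, on 10 and 47 alignments, and a Metazoa_SRP locus with -2.47, on 36 and 4 alignments. Loci of 7SK were among both the largest rises (2.43 and 2.19) and the largest falls (-1.95 and -1.93). Miscellaneous RNAs gave 4 higher and 15 lower under the miRNA total.

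Antisense RNAs and ribozymes leaned to lower levels. Of 23 antisense RNAs, 2 (8.70%) were higher and 11 (47.8%) lower, with a median of -0.89. Of 7 ribozymes, 4 were lower and 0 higher, with a median of -1.02, and the feature of Rmrp fell by 1.17. Of 6 small Cajal body RNAs, 1 was higher and 2 lower, with a median of -0.08. Of these, SCARNA2 fell by 1.68 and SCARNA6 rose by 1.06, and the latter differed by 0.50 when scaled to the miRNA total. Of 9 sense intronic RNAs, 1 was higher and 1 lower, with a median of -0.12, and the 2 mitochondrial rRNAs had a median of 0.28 with 0 called. With the miRNA total 1 antisense RNA was higher and 12 lower, 6 ribozymes were lower, 0 of the small Cajal body and sense intronic RNAs were higher, and the median of the mitochondrial rRNAs flipped to -0.28.

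The steps on either side share a library with this one, P5 to P7 the P7 library and P10 to P15 the P10 library, so a low or high value of the shared library enters both steps. For the same 304 miRNA features, the median difference was -0.32 from P5 to P7, 0.41 from P7 to P10 and -0.32 from P10 to P15. Between P5 and P10, without the P7 levels, it was 0.05. The positive median of the step was thus almost absent when P10 was set against P5. For the 223 snoRNAs the medians of the 3 steps were 0.14, 0.32 and -1.12, and for the 945 lincRNAs 0.19, -0.46 and -0.40. Between P5 and P10 snoRNAs had a median of 0.41 and lincRNAs of -0.28, the same signs as from P7 to P10. The features were still chosen by their alignments at P7 and P10 and not at P5, which can favour high levels at P10. All medians of these steps are as deposited, and no other scaling was applied to them. The signs are therefore no check that is free of the P7 library.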

How the data were processed

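The authors pooled 3 retinas per age, sequenced small RNA on the Ion Torrent PGM, mapped the trimmed reads to noncoding RNAs of Ensembl, then used Cufflinks, Cuffmerge and Cuffdiff. The submitters' processing notes give Cuffdiff 2.2.1.3 and the build Rnor_6.0. The deposited values are FPKM, with 1 value per feature and age over 21 pairs of ages, and the scaling between libraries is not stated. The fold changes, p-values and q-values in the deposited table are the authors' own comparisons and were not used. Mir9 is not reported here.

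Alignments were estimated from the spacing of low FPKM values. The worth of 1 alignment was found directly for 616 of 724 locus lengths and interpolated for the rest. At the lengths found directly, 2956 values at P7 and 3103 at P10 lay below 12 such units. All of them (100%) were sums of 2 step sizes within a fixed margin in these units. The relative tolerance of 8e-06 was used in a later step, where single values were split into 2 components. The procedure was tested on simulated data in which both components had equal expected signal. That test could not show how far the assumption of equal signal holds. A mean of at least 20 alignments, a locus length of at least 50, a pseudocount of 1 and a 2-fold difference were used, with no test between ages since each has 1 library.

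The named features were, among those whose interval left out 0 and whose direction held under each scaling, the 10 largest rises and 10 largest falls of miRNAs and the 3 largest rises and falls of each other class. The 6 most abundant miRNAs and the members of 12 lists (photoreceptor, neuron, progenitor timing, proliferation, Muller glia and pigment epithelium, oligodendrocyte, endothelium and mural cells, blood, muscle, lens and surface epithelium, maturation, families of the study) were also named. Members and lists were chosen with earlier results of these data known.

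Alternatives were scaling to the miRNA total, scaling over the miRNAs by median of ratios or by TMM (with 30% of ratios and 5% of levels trimmed), pseudocounts of 0.1 and 10, no filter, a mean of at least 100 alignments, FPKM above 0 at both ages, no limit on the locus length, and loci of 1 miRNA summed. Chosen after seeing the data were a call that also needs an interval without 0, leaving out opposite-strand loci, and RefSeq symbols only, which 219 of the 304 tested miRNA features had. From RefSeq on GRCr8 only names, synonyms, host genes and mature sequences were taken. Python 3.11.15, pandas 2.3.3, numpy 2.4.6 and matplotlib 3.10.9 were used.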

Additional observations from a re-analysis of the deposited data

Results flagged for a closer look

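Features with a locus length under 50 were outside the comparison, and some of them had high FPKM values on few alignments. A feature of Col6a3 with a locus length of 8 had 3.27e+06 FPKM at P7 and 1.89e+06 FPKM at P10, on 44.5 and 15.2 alignments. AC135674.1, annotated as miRNA with a locus length of 9, had 460510 FPKM at P7 and 4e+06 FPKM at P10, above the limit of 3 alignments that a count of 0 allows. Its estimated alignments were 12.2 and 62.8. The 485 loci this short held 61.0% of all FPKM at P7 and 50.9% at P10, but 0.992% and 0.540% of the signal per alignment.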

How the results depend on the processing

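Scaled to the miRNA total, 34 miRNA features were called higher and 74 lower, the medians of miRNAs and snoRNAs became -0.14 and -0.24, and 98 and 857 features of all classes were called. Median-of-ratios scaling gave 50 miRNA features lower and medians of 0.16 and 0.070, and TMM medians of 0.19 and 0.10. Without the filter on low values, 131 miRNA features were higher and 92 lower, the medians were 0.23 and 0.13, and 766 and 1441 of all classes were called. With FPKM above 0 at both ages these values were 131, 84, 0.25, 0.14, 749 and 1325. A mean of at least 100 alignments gave 52 and 7 miRNA features, a miRNA median of 0.67, and 92 and 89 of all classes, fewer features being tested. With no limit on the locus length the miRNA median was 0.31. With RefSeq symbols only, chosen after seeing the data, 10 miRNA features were lower, since clone-named features were left out. For the scalings and the other filters the cause was not tested.

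Of 126 differences of named features, both pseudocounts kept 126 in direction and on the same side of 2-fold. Median-of-ratios and TMM scaling each kept 115. Scaling to the miRNA total kept 93, with 20 no longer and 7 newly past 2-fold, and 6 that were below 2-fold changed sign.

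The main limit is 1 pooled library per age, so variation between animals is unknown. The number of alignments assumes equal signal of the step sizes, and a feature at the filter of 20 alignments has a wide interval. At P10 the larger step size makes low levels coarser than at P7. How reads shared by related loci were counted is not known, and the arms of a hairpin cannot be separated.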
